A study of Mus musculus with 6 samples.

Results

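The genes described are 10 genes of the NRF2 redox response, chosen by name from the 43346 genes of a count table of mouse primary cortical cell cultures: Keap1, Nfe2l2, Srxn1, Txnrd1, Gclc, Gclm, Hmox1, Nqo1, Osgin1 and Slc7a11. They were chosen with the comparison between the treatments already known, so their values in that comparison are a description and carry no test. The cultures came from fetal cortex at gestational day 15.5 and received either vehicle (DMSO, which the labels spell DSMO) or 1 mM 10HDA, a hydroxylated fatty acid of royal jelly. RNA sequencing gave 6 libraries, 3 for each treatment, with 1 library of each treatment from each of cultures 1, 3 and 4. Both groups carry the same labels otherwise, strain Cyp19-EGFP and genotype SRY+ (male), although the study's methods name C57BL/6 embryos for this experiment. The methods call the cells cortical neurons, and the libraries hold RNA of the whole culture, which contains glia as well.

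NRF2, the product of Nfe2l2, is a transcription factor that KEAP1 holds in the cytosol and passes to the CUL3 ubiquitin ligase for degradation. Electrophiles and oxidants modify cysteines of KEAP1, after which NRF2 accumulates, pairs with small MAF proteins and binds antioxidant response elements in front of genes for glutathione synthesis, thioredoxin reduction, quinone reduction and heme breakdown. Much of this regulation acts on NRF2 protein, which RNA counts do not show. In brain the pathway is known best from astrocytes, which import cystine through SLC7A11 and supply neighbouring neurons with glutathione precursors.

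Stretches of promoter were searched for letters of the antioxidant response element. RefSeq start-site windows (GRCm38.p6, 250 bases before to 50 after each start) matched 8 of the 10 genes, in 10 windows. Hmox1 and Gclc had no entry. The core TGACNNNGC, searched on both strands, was found in 4 genes, Srxn1, Txnrd1, Gclm and Nfe2l2, and in 14.0% of the 27025 genes with a window. The related core TGAGNNNGC, chosen after the windows were seen, was found in 3 genes, Srxn1, Slc7a11 and Osgin1, and in 19.8% of all genes. The letters TGAGTCAGC, 1 of the sequences that the second core covers, were found in Srxn1 and Osgin1 and in 0.481% of all genes. These letters were also chosen after the windows were seen, so their low share over all genes is no test. The letters TGATGCAA, which resemble the amino acid response element bound by ATF4, were found only in Slc7a11 among these 8 genes, with 2 matches, and in 1.03% of all genes. They too were chosen after the windows were seen.

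The 250 bases before the start site are shown for 4 genes, picked with their differences known. Srxn1 and Osgin1 share TGAGTCAGC and had higher counts with 10HDA. Gclm holds the core TGACNNNGC and was a little higher, and Slc7a11 was lower. Each stretch runs 5′ to 3′ on the strand of the gene, and capitals mark matches to TGACNNNGC, TGAGNNNGC or TGATGCAA. A match on the opposite strand reads as GCNNNGTCA, GCNNNCTCA or TTGCATCA. Srxn1 lies at chr2:152105274-152105523 (plus strand), Gclm at chr3:122245307-122245556 (plus), Osgin1 at chr8:119436897-119437146 (plus) and Slc7a11 at chr3:50443614-50443863 (minus).
Srxn1: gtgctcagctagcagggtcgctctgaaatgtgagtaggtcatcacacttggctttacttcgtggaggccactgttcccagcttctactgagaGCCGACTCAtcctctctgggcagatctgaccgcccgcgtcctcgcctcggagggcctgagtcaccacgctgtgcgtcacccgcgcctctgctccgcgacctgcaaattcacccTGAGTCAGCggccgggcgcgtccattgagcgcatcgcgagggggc
Gclm: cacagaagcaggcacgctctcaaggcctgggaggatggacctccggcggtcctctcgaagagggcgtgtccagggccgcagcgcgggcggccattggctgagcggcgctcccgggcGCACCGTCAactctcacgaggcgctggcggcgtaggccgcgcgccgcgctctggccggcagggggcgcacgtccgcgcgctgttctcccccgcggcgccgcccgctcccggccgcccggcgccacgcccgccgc
Osgin1: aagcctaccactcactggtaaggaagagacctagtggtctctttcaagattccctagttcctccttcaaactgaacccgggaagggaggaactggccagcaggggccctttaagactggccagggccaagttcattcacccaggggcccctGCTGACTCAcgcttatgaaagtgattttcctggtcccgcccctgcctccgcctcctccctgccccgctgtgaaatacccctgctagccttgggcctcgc
Slc7a11: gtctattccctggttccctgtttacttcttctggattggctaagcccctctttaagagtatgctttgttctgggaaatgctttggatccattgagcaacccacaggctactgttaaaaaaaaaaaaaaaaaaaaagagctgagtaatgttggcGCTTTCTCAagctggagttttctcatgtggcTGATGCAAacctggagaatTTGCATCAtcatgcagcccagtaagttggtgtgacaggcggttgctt
Positions count from the start site and give the first base of each match as read on the strand of the gene. The TGAGTCAGC match lies at -45 in Srxn1 and at -99 in Osgin1, where it is on the opposite strand. Srxn1 holds a second match to TGAGNNNGC at -158, and its match to TGACNNNGC lies after the start, at 29. The match of Gclm lies at -134. In Slc7a11 the TGATGCAA matches lie at -66 and -47, on opposite strands, and the TGAGNNNGC match at -97. Of the genes not shown, Txnrd1 holds TGACNNNGC at -92 in 1 of its windows and was higher with 10HDA. Nfe2l2 holds it at -240 and had no settled direction. Nqo1 and Keap1 hold none of the marked sequences. Nqo1 was higher with 10HDA, on few counts, and Keap1 was close to its vehicle level. These matches describe letters, not bound sites, and a link between letters and differences was not tested.

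The libraries held 9144736 to 13367194 counts on genes, and 3 counts corresponded to 0.224 to 0.328 CPM, that is, counts scaled to a common library total. Expression values are CPM after TMM scaling, which corrects library totals for differences in composition. Neuron markers were the most abundant of the marker lists, with 8 markers summing to 7275 to 7783 CPM with vehicle and 6094 to 6990 with 10HDA. The 12 astrocyte markers summed to 1516 to 1825 CPM with vehicle and 1167 to 1413 with 10HDA, and 5 of the 11 tested passed the threshold as lower in edgeR's quasi-likelihood test. The 8 microglia markers summed to at most 1.21 CPM in every library, with Tmem119 at 0 throughout. In bulk RNA, fewer cells of a type and less RNA per cell cannot be told apart. Although all libraries are labelled male, a sum of 4 Y-linked genes (Uty, Kdm5d, Ddx3y, Eif2s3y) reached 8.83 and 9.41 CPM by library total, without TMM scaling, in the libraries of culture 1, against 90.0 to 131 in the other 4, so the values without culture 1 are given as well.

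With 10HDA, 8 of the 10 genes had higher counts and 2 had lower counts. The oxidant-repair enzyme gene Srxn1 was 1.99-fold higher, the heme oxygenase gene Hmox1 1.73-fold higher and the thioredoxin reductase gene Txnrd1 1.33-fold higher. Gclm and Gclc, which encode the subunits of the enzyme that starts glutathione synthesis, were 1.25-fold and 1.19-fold higher. The cystine transporter gene Slc7a11 went the other way, at 0.578 of its vehicle level, and the genes of the sensor and the factor themselves, Keap1 and Nfe2l2, were close to their vehicle levels. The median log2 fold change was 0.36 over all 10 genes. Nqo1 and Osgin1 were under the filter (10 CPM or more in no fewer than 3 libraries) and took their values from a fit without it. Over the 8 genes that passed the filter the median was 0.28, against -0.0095 over all 10520 genes that passed. Within cultures the median of the 10 genes was 0.43 in culture 1, 0.33 in culture 3 and 0.38 in culture 4. In 3 of 3 cultures 7 of the 10 genes were higher and 1, Slc7a11, was lower. Of the 8 that passed the filter 6 were higher, 5 of them in 3 of 3 cultures. Of all tested genes 47.9% were higher, 18.6% were higher in 3 of 3 cultures and 21.0% were lower in 3 of 3.

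**Figure D1:**
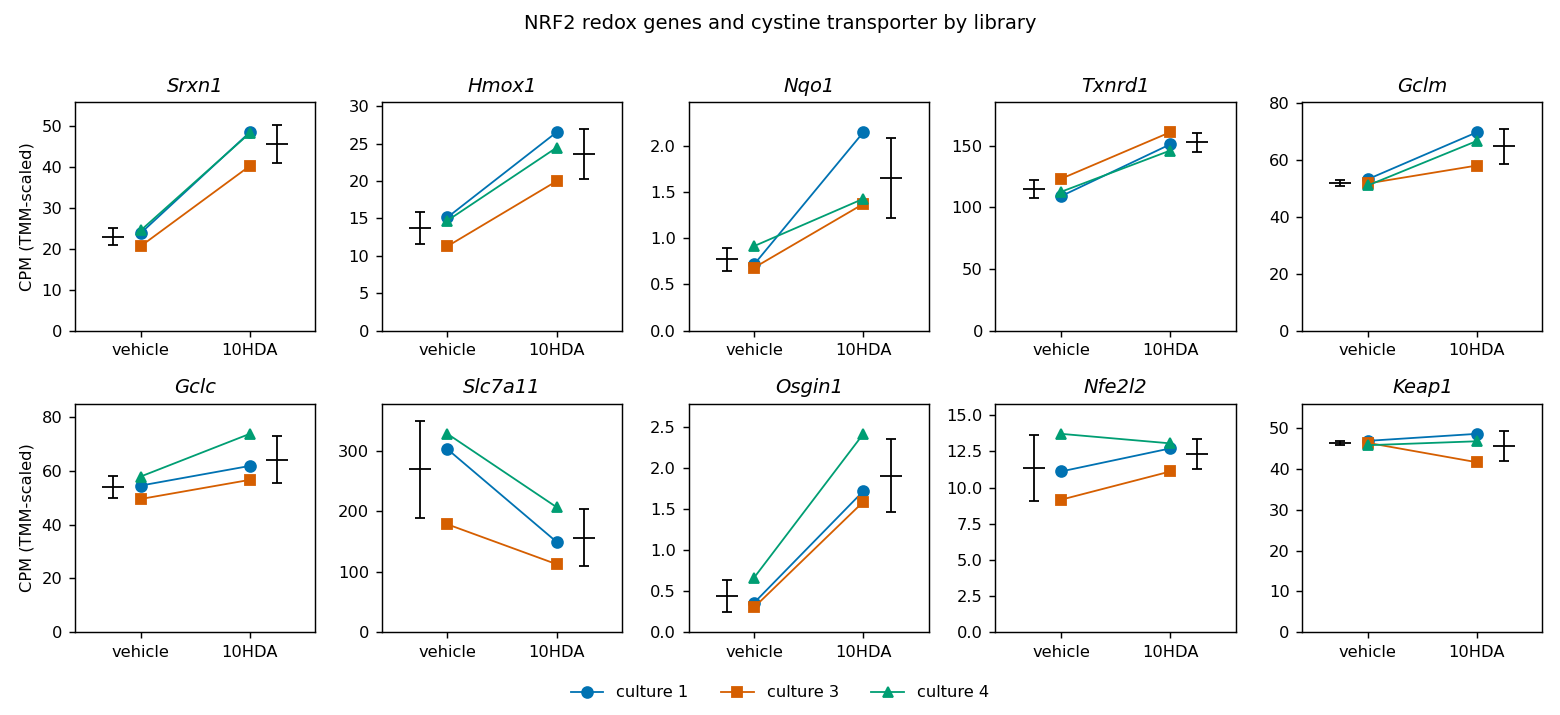
CPM (vertical axis, linear, from 0, with a scale of its own for each gene) of the 10 genes in the 3 vehicle and 3 10HDA libraries. Points of 1 culture are joined by a line, and the black bars beside them are the mean ± SD of each group; lines go up in 3 of 3 cultures for 7 genes and down in 3 of 3 for Slc7a11.

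Of the 10520 genes tested, 66 passed an adjusted p of 0.1 (0.627%), 21 of them higher with 10HDA (0.2%) and 45 lower (0.428%). Of the 10 genes, 8 passed the filter, and 2 of these 8, Srxn1 and Hmox1, were among the 66. A fit that blocked on culture called 945 genes (8.98%), of which 411 were higher (3.91%) and 534 lower (5.08%), and 5 of the 8 were among them, namely Srxn1, Hmox1, Txnrd1 and Gclm as higher and Slc7a11 as lower. The 3 vehicle and 3 10HDA values did not overlap in 13.4% of the tested genes, 5.96% with 10HDA higher and 7.44% with 10HDA lower, and of the 8 genes they did not overlap in Srxn1, Hmox1, Txnrd1 and Gclm. Nqo1 and Osgin1, both under the filter, did not overlap either, as did 6.24% of the 22438 genes with at least 1 count in at least 3 libraries in that direction. Nothing is read from these counts about the 10 genes, since this comparison was known when they were chosen.

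**Figure D2:**
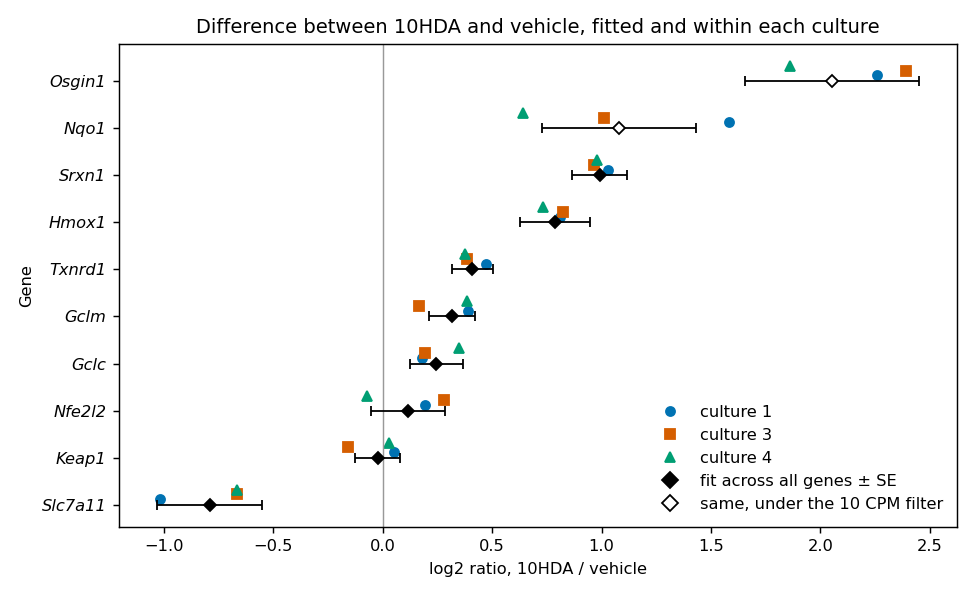
Log2 ratio of 10HDA to vehicle (horizontal axis) for each of the 10 genes. Coloured points are the ratios within cultures 1, 3 and 4, diamonds with bars are the fitted log2 fold change ± SE over 3 libraries a group, and open diamonds mark the 2 genes under the filter; the fitted values run from -0.79 for Slc7a11 to 2.05 for Osgin1.

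With vehicle the genes differed widely in level per length, here CPM per kilobase of gene model. On the deposited gene models Txnrd1 was highest at 33.6 ± 2.15 CPM per kb (SD, n = 3). Slc7a11 followed at 19.4 ± 5.76 and Gclc at 15.8 ± 1.23, and the ranges of these neighbours overlapped. Keap1 stood at 9.95 ± 0.11, Gclm at 9.40 ± 0.20 and Srxn1 at 8.16 ± 0.73, with ranges that did not overlap. Hmox1 stood at 6.34 ± 0.98 and Nfe2l2 at 2.98 ± 0.60. Nqo1 and Osgin1 were lowest, at 0.496 ± 0.081 and 0.165 ± 0.073. With 10HDA, Slc7a11 stood at 11.2 ± 3.42 CPM per kb, near Gclm (11.7 ± 1.10) and Hmox1 (10.9 ± 1.55), while Srxn1 reached 16.2 ± 1.67. The order depends on the lengths. The deposited model of Txnrd1 holds 3417 bases against 7086 exon bases in GENCODE M21, and on the M21 lengths Txnrd1 came to 16.2 ± 1.04 CPM per kb with vehicle, below Slc7a11 at 19.4 ± 5.76 with overlapping ranges. On those lengths Gclm (8.28 ± 0.18), Srxn1 (8.16 ± 0.73) and Hmox1 (7.83 ± 1.21) overlapped as well.

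**Figure D3:**
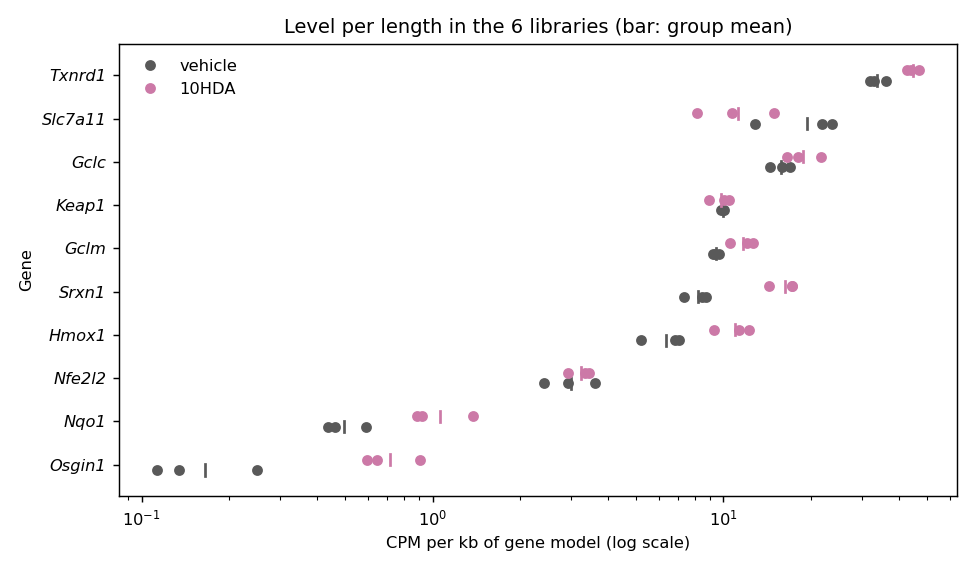
Level per length (CPM per kb of the deposited gene model, log axis) of the 10 genes, ordered by the vehicle mean. Each point is 1 library and the short bars are group means; Txnrd1 is highest and Osgin1 lowest in both groups, and the 10HDA points of Slc7a11 lie to the left of its vehicle mean.

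Keap1 (chr9:21229730-21239361, minus strand, GENCODE M21 on GRCm38), which encodes the sensor, had 46.9, 46.5 and 45.9 CPM in the vehicle libraries of cultures 1, 3 and 4 and 48.7, 41.7 and 46.8 with 10HDA. The groups overlapped, and the log2 fold change was -0.023 ± 0.10 (SE). An antisense transcript, Gm16754, covers 10.9% of the exon bases of Keap1. It had 138 counts over all libraries, and the strand setting of the counting is not given in the sources used here. Nfe2l2 (chr2:75675513-75704641, minus strand), which encodes NRF2, had 11.1, 9.16 and 13.7 CPM with vehicle and 12.7, 11.1 and 13.1 with 10HDA. It was a little higher in cultures 1 and 3 and a little lower in culture 4, and its log2 fold change was 0.12 ± 0.17. Both genes changed sign under other processing, Keap1 between -0.069 and 0.050 and Nfe2l2 between -0.020 and 0.30, so neither had a settled direction.

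The list of NRF2 regulators and partners held 8 further genes, of which 7 were tested and 0 passed the threshold in edgeR's quasi-likelihood test, with 1 at an unadjusted p under 0.05 and 0 called by DESeq2. That gene was Mafg, a small MAF protein that pairs with NRF2, at 141.7 ± 7.77 CPM with vehicle and 169 ± 12.1 with 10HDA (log2 fold change 0.26 ± 0.097 SE, adjusted p = 0.42 in edgeR's quasi-likelihood test). Its groups did not overlap. The median log2 fold change of the 7 genes was 0.041.

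Srxn1 (chr2:152105516-152111376, plus strand) encodes sulfiredoxin, which reduces overoxidised peroxiredoxins. It had 23.8, 20.7 and 24.5 CPM in the vehicle libraries of cultures 1, 3 and 4 and 48.6, 40.3 and 48.4 with 10HDA. Every 10HDA library stood well above every vehicle library, and culture 3 was lowest in both groups. The mean went from 23.0 ± 2.06 to 45.8 ± 4.71 CPM (SD, n = 3), a log2 fold change of 0.99 ± 0.13 (SE). Within cultures 1, 3 and 4 the ratios were 2.04, 1.95 and 1.97, and the SD of their log2 values, 0.033, was the smallest of the 10 genes.

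Txnrd1 (chr10:82833951-82897712, plus strand) encodes the cytosolic thioredoxin reductase, which keeps thioredoxin reduced at the cost of NADPH. It had 109, 123 and 113 CPM with vehicle and 151, 161 and 146 with 10HDA. The groups were separate, with culture 3 highest in both. The log2 fold change was 0.41 ± 0.095, and the ratios within cultures 1, 3 and 4 were 1.39, 1.31 and 1.30.

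The list of glutathione and thioredoxin enzymes held 21 further genes, of which 20 were tested, 13 of them with a higher and 7 with a lower fitted value. In edgeR's quasi-likelihood test 0 passed the threshold, with 3 at an unadjusted p under 0.05 and 0 called by DESeq2. The smallest p was that of Gsr, glutathione reductase, which returns oxidised glutathione to its reduced form. It had 41.7, 37.8 and 35.3 CPM with vehicle and 52.1, 45.5 and 51.7 with 10HDA, with no overlap (log2 fold change 0.38 ± 0.11 SE, adjusted p = 0.28 in edgeR's quasi-likelihood test). With culture as a block 4 genes of the list passed in the same test, against 8.98% of all tested genes. These were Gsr (adjusted p = 0.031), the thioredoxin Txn1 (blocked log2 fold change 0.61 ± 0.10, adjusted p = 0.00054) and the peroxiredoxin Prdx1 (0.49 ± 0.10, adjusted p = 0.0038) as higher, and Gpx4, which reduces lipid peroxides, as lower (-0.35 ± 0.12, adjusted p = 0.081). The median log2 fold change of the list was 0.046.

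Gclc (chr9:77754535-77794485, plus strand) encodes the catalytic subunit of glutamate-cysteine ligase, and Gclm (chr3:122245557-122270732, plus strand) its modifier subunit. Gclc had 54.6, 49.6 and 57.9 CPM with vehicle and 61.9, 56.7 and 73.8 with 10HDA. It was higher in each culture, but the 10HDA library of culture 3 lay below the vehicle library of culture 4, so the groups overlapped. Gclm had 53.3, 51.8 and 51.1 CPM with vehicle and 69.9, 58.1 and 66.8 with 10HDA. Its groups did not overlap, and culture 3 had the smallest difference. The log2 fold changes were 0.25 ± 0.12 for Gclc and 0.32 ± 0.10 for Gclm. The ratio of Gclc to Gclm, each per length, was 1.66, 1.55 and 1.84 with vehicle in cultures 1, 3 and 4 and 1.43, 1.58 and 1.79 with 10HDA, so that the subunit ratio overlapped between groups. Gm17494 on the opposite strand shares 4.71% of the exon bases of Gclm and had 74 counts in all.

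Hmox1 (chr8:75093621-75100589, plus strand) encodes the inducible heme oxygenase, which opens heme to biliverdin, iron and carbon monoxide. It had 15.1, 11.3 and 14.7 CPM with vehicle and 26.5, 20.0 and 24.5 with 10HDA. All 10HDA libraries lay above all vehicle libraries, and culture 3 was again lowest in both groups. The mean went from 13.7 ± 2.12 to 23.7 ± 3.35 CPM (SD, n = 3), a log2 fold change of 0.79 ± 0.16 (SE). The ratios within cultures 1, 3 and 4 were 1.75, 1.77 and 1.66.

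The list of heme breakdown and iron storage genes held 6 genes, of which 4 were tested and 0 passed the threshold in edgeR's quasi-likelihood test, with 0 at an unadjusted p under 0.05 and 0 called by DESeq2. The smallest p was that of Ftl1, the ferritin light chain that stores iron, whose log2 fold change was 0.18 ± 0.12 (adjusted p = 0.62 in edgeR's quasi-likelihood test). Its partner Fth1, the heavy chain, had 454 ± 62.0 CPM with vehicle and 444.9 ± 25.6 with 10HDA. The constitutive heme oxygenase gene Hmox2 had a log2 fold change of -0.16 ± 0.15.

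Nqo1 (chr8:107388225-107403206, minus strand) encodes a quinone reductase that is a common readout of NRF2 activity. It was close to the detection limit, with 8, 9 and 11 counts in the vehicle libraries and 25, 19 and 13 in the 10HDA libraries. In CPM these were 0.717, 0.681 and 0.914 against 2.15, 1.37 and 1.43. The groups did not overlap, but the ratios within cultures 1, 3 and 4 ranged over 2.99, 2.01 and 1.56. The log2 fold change was 1.08 ± 0.35. Osgin1 (chr8:119434124-119446256, plus strand), an oxidative stress induced growth inhibitor, was lower still with vehicle, at 4, 4 and 8 counts. With 10HDA it had 20, 22 and 22 counts, which overlapped those of Nqo1. In CPM these were 0.358, 0.303 and 0.665 against 1.72, 1.59 and 2.41. Its log2 fold change, 2.05 ± 0.40, was the largest of the 10 genes, on the smallest vehicle counts. The RefSeq start site whose promoter is shown lies inside the GENCODE gene rather than at its outer end.

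The list of NADPH supply enzymes, which feed both NQO1 and the reductases, held 6 genes, all tested, and 0 passed the threshold in edgeR's quasi-likelihood test, with 0 at an unadjusted p under 0.05 and 0 called by DESeq2. The smallest p was that of Me1, the cytosolic malic enzyme, whose log2 fold change was 0.21 ± 0.11 (adjusted p = 0.53 in edgeR's quasi-likelihood test). G6pdx, which opens the pentose phosphate pathway, had 42.6 ± 5.65 CPM with vehicle and 42.9 ± 3.38 with 10HDA.

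Slc7a11 (chr3:49892526-50443614, minus strand) encodes xCT, the light chain of the antiporter that imports cystine in exchange for glutamate. It had 303, 178 and 328 CPM in the vehicle libraries of cultures 1, 3 and 4 and 149, 113 and 207 with 10HDA. Each 10HDA library was lower than the vehicle library of its culture, but the vehicle library of culture 3 lay below the 10HDA library of culture 4, so the groups overlapped. The mean went from 269.9 ± 80.2 to 156 ± 47.6 CPM (SD, n = 3), a log2 fold change of -0.79 ± 0.24 (SE). The ratios within cultures 1, 3 and 4 were 0.493, 0.630 and 0.630, and with culture as a block the log2 fold change was -0.78 ± 0.097. Culture 3 was low with either treatment. Without culture 1 the log2 fold change was -0.65.

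SLC7A11 works as a dimer with SLC3A2, the heavy chain shared with other amino acid transporters. Slc3a2 had 315, 243 and 264 CPM with vehicle and 357, 291 and 321 with 10HDA (log2 fold change 0.24 ± 0.12 SE, adjusted p = 0.53 in edgeR's quasi-likelihood test). The ratio of Slc7a11 to Slc3a2, each per length, was 0.204, 0.156 and 0.264 with vehicle and 0.0890, 0.0823 and 0.137 with 10HDA. The groups did not overlap in this ratio, although they overlapped in each gene alone. Slc7a11 was chosen with its difference known, and how often other gene pairs separate was not tested. The astrocyte markers moved in the same direction as Slc7a11. Of 11 tested, 10 had a lower fitted value, the median log2 fold change was -0.59, and their summed level did not overlap between the groups. The neuron markers had a median of -0.24, with 7 of 8 lower and 0 past the threshold (3 at an unadjusted p under 0.05, and 1 called by DESeq2). With culture as a block 3 were called lower, against 5.08% of all tested genes. In 5 of 8 the groups did not overlap, with 10HDA lower, against 7.44% of all tested genes. The summed level of the neuron markers did not overlap either, at 7275 to 7783 CPM with vehicle and 6094 to 6990 with 10HDA. For the 6 oligodendrocyte lineage markers the median was -0.49, with 4 of 6 lower, 1 of them past the threshold (3 with culture as a block), and summed to 319 to 400 CPM with vehicle and 239 to 345 with 10HDA. Among these Pdgfra, the receptor of oligodendrocyte precursors, stood at 0.433 of its vehicle mean and Cspg4 at 0.527, each lower in 3 of 3 cultures. Olig2 went the other way at 1.18, higher in 3 of 3 cultures and without overlap between the groups. Olig1 stood at 1.04 and Mbp at 0.958, with groups that overlapped. Sox10 stood at 0.360 and the pericyte marker Pdgfrb at 0.470, and both passed the filter only through the vehicle libraries. The endothelial and pericyte markers summed to 17.3 to 18.9 CPM with vehicle and 7.98 to 11.1 with 10HDA. Most of this sum was Pdgfrb, at 14.9 to 15.8 CPM with vehicle and 6.03 to 9.45 with 10HDA. Each of the others had at most 1.25 CPM in any library. Of these, Pecam1, Flt1 and Kdr had lower means with 10HDA, and Cldn5, Rgs5 and Kcnj8 had higher means, all on few counts. The part of any of these cell types in the difference of Slc7a11 was not tested.

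The list of cystine, cysteine and glutamate handling held 8 further genes, of which 7 were tested, and 1 rose and 1 fell past the threshold in edgeR's quasi-likelihood test. Chac1, which encodes an enzyme that degrades glutathione and is a known target of ATF4, rose from 26.2 ± 2.72 to 48.8 ± 5.51 CPM (SD, n = 3), a log2 fold change of 0.90 ± 0.13 (SE, adjusted p = 0.027 in edgeR's quasi-likelihood test). It was higher in 3 of 3 cultures. Cbs, cystathionine beta-synthase, which makes cysteine from homocysteine and is known from astrocytes and radial glia, fell from 25.5 ± 2.75 to 15.8 ± 1.57 CPM (log2 fold change -0.69 ± 0.14, adjusted p = 0.072 in the same edgeR test). It was lower in 3 of 3 cultures, as the astrocyte markers were on the whole, and their part in its difference was not tested. Atf4 itself had 318 ± 34.7 and 348 ± 42.1 CPM (adjusted p = 0.71 in edgeR's quasi-likelihood test).

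The list of other NRF2 targets in detoxification and export held 14 genes, of which 10 were tested, and 3 were higher past the threshold while 0 were lower in edgeR's quasi-likelihood test (4 at an unadjusted p under 0.05, and 3 called by DESeq2). Gsta4 is 1 of the 3, and it passed the filter only through the 10HDA libraries, where it is high, so its call there is no test. This glutathione transferase, which takes up products of lipid peroxidation, had 9.85, 5.60 and 9.64 CPM with vehicle and 17.4, 18.5 and 17.9 with 10HDA (log2 fold change 1.11 ± 0.20 SE). In the fit with no filter on CPM, which its vehicle libraries pass as well, its adjusted p was 0.026 in edgeR's quasi-likelihood test. Ephx1, microsomal epoxide hydrolase, rose from 11.0 ± 2.74 to 23.4 ± 4.16 CPM (1.09 ± 0.20, adjusted p = 0.050 in the same edgeR test). Gstm1, another glutathione transferase, rose from 92.9 ± 13.4 to 144 ± 9.94 CPM (0.64 ± 0.12, adjusted p = 0.053 in the same edgeR test). Each was higher in 3 of 3 cultures, without overlap between the groups. Gstm1 belongs to a family of near-identical copies, so reads shared with its paralogs make its level uncertain. The exporter Abcc4, which also passed the filter only through the 10HDA libraries, had 7.44, 6.73 and 9.47 CPM with vehicle and 9.96, 10.1 and 12.6 with 10HDA.

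Over the 6 lists, 54 of 63 genes were tested, and 4 were called higher, Gsta4 included, and 1 lower, against 0.2% higher and 0.428% lower over all tested genes, and the median log2 fold change was 0.062. The lists were drawn up with earlier results of these data known, so these counts are a description. These calls moved with single libraries. Without the 10HDA library of culture 1, or without the vehicle library of culture 3, 0 of the lists' genes passed in edgeR's quasi-likelihood test, and without both libraries of culture 1 also 0, with log2 fold changes of 0.96 for Chac1, 1.03 for Ephx1, 0.70 for Gstm1 and -0.53 for Cbs. Gsta4 was not tested in any fit without a 10HDA library or without a whole culture. It no longer passed the filter there, so it could not be among the calls.

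**Figure D4:**
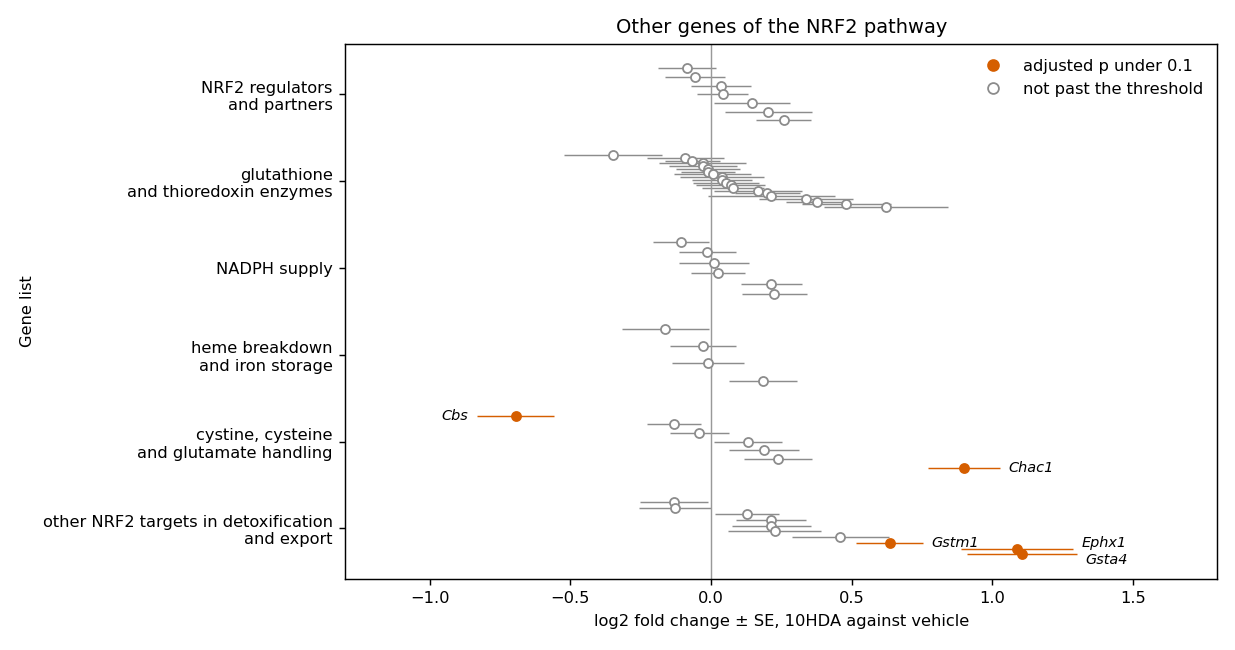
Log2 fold change ± SE (horizontal axis, 10HDA against vehicle, 3 libraries each) of the 54 tested genes of the 6 pathway lists, 1 point per gene. Filled points passed an adjusted p of 0.1 in edgeR's quasi-likelihood test; 4 lie to the right (Gsta4, Ephx1, Chac1 and Gstm1) and 1 to the left (Cbs), and Gsta4 is among the tested genes only through its 10HDA libraries.

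The profile over the 6 libraries was compared with that of 15311 genes that had 1 CPM or more in 3 or more libraries, as the root mean square difference of log2 CPM after centring each gene. Closest to Srxn1 were Chac1 (0.078), the lysosomal transcription factor gene Tfeb (0.11) and Cyb5r1 (0.12). Closest to Hmox1 were Eif4ebp1 (0.057), which encodes a repressor of cap-dependent translation, Stard5 (0.085) and the processed pseudogene Gm9252 (0.094). Closest to Slc7a11 were the processed pseudogenes Gm6977 (0.12), Gm12180 (0.13) and Gm13077 (0.14), whose counts can include reads of their parent genes. The measure rests on 6 libraries and says nothing of shared control.

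Without culture 1, whose Y-linked counts go against the label, the differences of the 10 genes stayed close to those over all cultures. The log2 fold change was 0.99 for Srxn1, 0.79 for Hmox1, 0.40 for Txnrd1, 0.30 for Gclm and 0.30 for Gclc. Nqo1 came to 0.82 and Osgin1 to 2.02. The median over the 10 genes was 0.35. With 2 cultures left, 2 genes of the whole table passed the threshold, and none of the 10 was among them.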

How the data were processed

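RNA from 3 primary cortical cultures was sequenced in 6 libraries, 1 with vehicle and 1 with 1 mM 10HDA from each culture. Per the study's methods, the authors ran Subjunc (Subread 1.4.4 in the submitters' processing notes) on untrimmed reads with mm10 as the genome, and featureCounts with Gencode models. They deposited raw counts per gene, not normalized, and a column of gene model length. No further sample columns were present (0). Symbols and coordinates came from GENCODE M21 (GRCm38), which matched 98.0% of the identifiers. Libraries held 9144736 to 13367194 counts.

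After TMM scaling, edgeR 4.0.16 (glmQLFit, glmQLFTest; R 4.3.3) compared the treatments over the 10520 genes that had 10 CPM or more in no fewer than 3 libraries. The p-values were adjusted by the Benjamini-Hochberg method and read at 0.1, as in the methods, which name no culture term. The standard error of a log2 fold change is its size over the square root of its F statistic. Genes under the filter took their fold change from a fit of all genes with at least 1 count in 3 libraries. With 3 libraries against 3 an exact permutation test cannot go below 0.1, so none is given. The number of animals behind a culture is not given in the sources used here, so p-values measure the spread between these libraries. The limit of 3 counts covers counting error only. The 10 genes, the 6 pathway lists and the marker lists were chosen with earlier results of these data known. Named were the 10 genes, list genes past the threshold, the gene of each list with the smallest p and the 3 closest profiles; further list genes were named after their values were seen. Besides the lists in the report, the markers of endothelial cells and pericytes (1 of 7 tested, Pdgfrb, which passed the filter only through the vehicle libraries, so that its call as lower is no test), meningeal fibroblasts (0 of 5 tested), the oligodendrocyte lineage (1 of 6 tested past the threshold, as lower), radial glia (0 of 6 past the threshold, 2 at an unadjusted p under 0.05, 0 by DESeq2) and red blood cells (0 of 5 tested) were read from the same edgeR fit.

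The labels put 1 library of each treatment in each culture, so the culture numbers pair the libraries. Deviations from the treatment means correlated across genes at 0.37, 0.24 and 0.62 within cultures 1, 3 and 4 and at -0.45 to 0.18 between cultures. The deviations of a gene cancel out within a treatment, so positive values within cultures push those between cultures down. The contrast is therefore partly built in, and the pairing rests on the labels. Genes are not independent replicates. The alternatives were culture as a block, DESeq2's size factors and Wald test (DESeq2 1.42.0), library size alone, other filters, a threshold of 0.05, and each library and each culture left out. The scripts were tested on simulated data.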

Additional observations from a re-analysis of the deposited data

How the results depend on the processing

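The 66 genes called became 945 with culture as a block, 170 with DESeq2's Wald test, 103 with no filter, 43 at a threshold of 0.05, and 2, 0 and 35 without culture 1, 3 or 4. Leaving out 1 library gave 0 to 355, with 0 without the 10HDA library of culture 1 (453 at an unadjusted p under 0.05 in edgeR's quasi-likelihood test) and 355 without that of culture 4. Without culture 3 the 0 calls stood beside 689 at an unadjusted p under 0.05, and DESeq2 was not run there. The 5 pathway genes called became 10 with the block (8 of these without Gsta4 and Abcc4, which passed the filter in 1 group only), 3 at 0.05, and 0, 0 and 2 without culture 1, 3 or 4, and 0 to 6 without 1 library, with 0 without the 10HDA library of culture 1 or the vehicle library of culture 3 and 2 without the vehicle library of culture 4 or the 10HDA library of culture 3. Gsta4 could not be among these calls in the fits without a 10HDA library or without a whole culture, where it no longer passed the filter. Fits with 1 library fewer called both fewer and more genes, and the cause was not tested. The median of the 10 genes, 0.36, moved past its spread in 1 alternative, library size alone (0.44), where the median of all genes was 0.064 and 44.9% of the calls were higher, against 31.82% with TMM. The motif count of 4 became 7 with TGANNNNGC, which 45.0% of all genes hold against 14.0% for TGACNNNGC. Srxn1 was called without each single library except the 10HDA library of culture 1. Of the fits without 1 library, Hmox1 was called in those without the vehicle library of culture 1 or the 10HDA library of culture 4, and the latter fit also called Txnrd1 and Slc7a11. Osgin1 was also called with filters that admit it, but the 1 CPM filter admitted it only through the 10HDA libraries, so that call adds nothing. Across alternatives the log2 fold change of Slc7a11 ranged from -1.04 to -0.60, that of Srxn1 from 0.92 to 1.08, and that of Hmox1 from 0.66 to 0.90. Counts below 10 per library in Nqo1 and Osgin1 limit their ratios.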

Other observations

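Of the 63 pathway genes 54 were tested. Among the rest, which were under the filter, only Blvra and Ptgr1 had groups that did not overlap, both with 10HDA higher. Of the 22438 genes with at least 1 count in at least 3 libraries, 6.24% did not overlap in that direction. Blvra and Ptgr1 were picked out after their values were seen. Blvra encodes biliverdin reductase, which acts after heme oxygenase, and had 8.69, 7.04 and 8.06 CPM with vehicle in cultures 1, 3 and 4 and 11.6, 9.88 and 9.98 with 10HDA. Ptgr1 encodes a reductase of lipid aldehydes and prostaglandins and had 0.986, 1.13 and 1.41 CPM with vehicle and 3.69, 2.09 and 2.63 with 10HDA. Its values rest on 11, 15 and 17 counts with vehicle and 43, 29 and 24 with 10HDA. Neither was tested in the comparison over genes above the filter.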
